A study of Mus musculus with 6 samples.

Results

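The GABA-A receptor subunits examined here are 7 genes, Gabra2, Gabra3, Gabra4, Gabra5, Gabrb1, Gabrb2 and Gabrd, taken by gene symbol from the 54429 rows of the deposited count tables. The list names 19 GABA-A subunits in all, of which the other 12 served as comparison. Bulk total RNA of mouse prefrontal cortex was sequenced in 3 libraries labelled Kmt5b shRNA and 3 labelled GFP. The Kmt5b shRNA mice had received AAV9, an adeno-associated virus, carrying a short hairpin RNA against the histone methyltransferase gene Kmt5b, and the GFP mice had received AAV9 carrying green fluorescent protein. Both groups were aged 6 to 8 weeks. By strain they are C57BL6/J in the labels but a C57BL/6 by C3H cross in the design text. That text also counts 2 GFP mice, fewer than the 3 GFP libraries, so an animal may stand behind more than 1 GFP library. Any p-value here speaks for the spread among these 6 libraries and may miss part of the spread among animals. The promoter of the hairpin and the share of cells that took up virus are not given in the sources used here, and the labels name no non-targeting hairpin. In bulk tissue, fewer cells of a type and less RNA per cell cannot be told apart.

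GABA-A receptors are pentameric chloride channels that open on binding GABA, the main inhibitory transmitter of the adult cortex. Their α and β subunits form the GABA binding sites, and the remaining position is usually held by a γ or the δ subunit, which largely sets where the receptor sits. Receptors with α2 or α3 and a γ subunit gather at synapses and carry brief inhibitory currents. Receptors with α4 and δ, and many with α5, lie outside synapses and carry a steady tonic current, although part of the α5 pool is also synaptic. The β subunits take part in both kinds.

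Gabra2, Gabra4 and Gabrb1 lie together on chromosome 5 (mm10; spans 70957597 to 71095849, 71569749 to 71658308 and 71658113 to 72149037). Gabra4 runs on the minus and Gabrb1 on the plus strand, head to head, so that their annotated spans overlap by 196 bases and their exons by 46 bases. Gabra5 lies on chromosome 7 from 57407672 to 57510059, Gabrd on chromosome 4 from 155384980 to 155398112, Gabrb2 on chromosome 11 from 42419757 to 42629028 and Gabra3 on chromosome X from 72432681 to 72656848. Exons of Gabra5 overlap those of the antisense gene Gm9962 by 148 bases, and the strand setting of the counting is not given in the sources used here. Reads in the overlaps of Gabra5 with Gm9962 and of Gabra4 with Gabrb1 may therefore have been assigned to either gene or to none. The longest transcripts of all 7 genes had 0 matches of 100 bases at 90% identity to the longest transcript of another protein-coding gene or of a pseudogene.

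Promoter windows of 300 bases, 250 before and 50 after a transcript start, were available for 6 of the 7 genes from RefSeq (GRCm38.p6). The windows of Gabra2 and Gabra4 and the first of the 2 windows of Gabrb1 are shown. Gabra2 was the subunit that varied most between control libraries. Gabra4 and Gabrb1 start beside each other and varied together across libraries (Pearson r = 0.94). Gabra3 and Gabrb2, on chromosomes X and 11, did so about as closely (r = 0.93). The windows shown are chr5:71095800-71096099 on the minus strand, chr5:71658259-71658558 on the minus strand and chr5:71657671-71657970 on the plus strand. Each is written 5′ to 3′ along its gene. Capitals mark the GC box (GGGCGG) and the EGR box (GCGNGGGCG), the sequences bound by Sp and by Egr zinc finger factors, read on either strand.
Gabra2: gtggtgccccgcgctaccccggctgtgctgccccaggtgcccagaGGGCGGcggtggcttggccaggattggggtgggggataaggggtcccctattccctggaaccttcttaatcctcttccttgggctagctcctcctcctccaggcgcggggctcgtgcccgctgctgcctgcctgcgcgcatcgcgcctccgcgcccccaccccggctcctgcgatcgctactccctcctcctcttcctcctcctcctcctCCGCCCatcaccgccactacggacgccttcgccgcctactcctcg
Gabra4: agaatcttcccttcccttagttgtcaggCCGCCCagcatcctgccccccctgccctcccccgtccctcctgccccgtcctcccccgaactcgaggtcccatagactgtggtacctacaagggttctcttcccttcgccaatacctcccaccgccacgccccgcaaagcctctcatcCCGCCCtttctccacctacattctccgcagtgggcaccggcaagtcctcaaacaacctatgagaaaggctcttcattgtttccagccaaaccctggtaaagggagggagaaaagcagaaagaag
Gabrb1: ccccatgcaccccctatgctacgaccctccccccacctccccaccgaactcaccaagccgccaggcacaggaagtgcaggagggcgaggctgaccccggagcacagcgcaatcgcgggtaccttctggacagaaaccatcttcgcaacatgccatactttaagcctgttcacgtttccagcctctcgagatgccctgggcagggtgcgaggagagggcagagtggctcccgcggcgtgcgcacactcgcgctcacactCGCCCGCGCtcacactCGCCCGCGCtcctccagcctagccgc
The Gabra2 window held 25 CG dinucleotides and 2 GC boxes, and the Gabra4 window 12 CG dinucleotides and 2 GC boxes. The Gabrb1 window shown lies wholly before the GENCODE M21 start of Gabrb1 and inside the annotated span of Gabra4. It held 25 CG dinucleotides and 2 EGR boxes, both within the 50 bases after the RefSeq start. The second Gabrb1 window, chr5:71699682-71699981 on the plus strand, held 9 CG dinucleotides and 0 EGR boxes. Over all 32851 windows of this length the median was 7 CG dinucleotides, 35.7% held a GC box and 5.55% an EGR box. The 2 windows of Gabra3 overlap and held 0 CG dinucleotides each. Both held the same match to the TATA box (TATAAA, in 13.6% of all windows), read on the opposite strand. The first Gabrb2 window, chr11:42420190-42420489 on the plus strand, also held 1 TATA box, with 1 GC box and 1 EGR box. Neither the cAMP response element (TGACGTCA) nor the E-box (CACGTG) was found in any of the 10 windows of these genes, and 1.79% and 7.15% of all windows held them. These matches are descriptions of letters and were not tested against the expression values.

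Library totals ranged from 48828638 to 57486203 counts for Kmt5b shRNA and from 29490771 to 74723284 for GFP, with GFP replicate 2 the shallowest. Processed pseudogenes took 0.271% to 0.282% of counts in the Kmt5b shRNA libraries and 1.17% to 1.2% in the GFP libraries, and the source of this difference was not tested. Results below are therefore also given, where they change, in a fit of protein-coding genes that share no sequence. The targeted gene, Kmt5b, had 68.5, 80.3 and 63.9 CPM (read counts relative to the library total after TMM scaling) in the Kmt5b shRNA libraries and 86.5, 79.7 and 80.9 CPM in the GFP libraries. Kmt5b shRNA over GFP gave -0.22 ± 0.10 on the log2 scale (SE; edgeR adjusted p = 0.303; two-sided exact permutation p = 0.2, where 3 against 3 libraries cannot go below 0.1). Kmt5b shRNA replicate 2 lay within the GFP range, so the knockdown itself was not established by these counts and directions below follow the labels. Markers of cortical excitatory neurons and interneurons were present in every library, with Slc17a7, the vesicular glutamate transporter, at 888 to 996 CPM in Kmt5b shRNA and 859 to 1109 CPM in GFP libraries. The 10 striatal markers, none of them at 0, summed to 235 to 256 CPM in Kmt5b shRNA and 220 to 239 CPM in GFP libraries. Of the 10, 1 was called higher, against 2.77% of all genes tested.

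None of the 7 subunits passed the test between Kmt5b shRNA and GFP cortex. At an edgeR quasi-likelihood adjusted p under 0.05, 0 of 7 were higher and 0 lower, against 2.77% of the 24419 genes tested called higher and 5.69% called lower, 8.46% in all. At an unadjusted p under 0.05 the count was also 0 of 7, and DESeq2 called 0. The 24419 genes include genes that are not protein-coding. With protein-coding genes only, 471 of 15778 genes were called higher and 184 lower, and 0 subunits were called. In the fit of protein-coding genes that share no sequence, which tested all 7, 0 subunits were called, against 0.772% of 12433 genes. The groups overlapped in CPM for all 7, while 22.5% of all tested genes had groups that did not overlap. Their log2 fold changes lay between -0.077 and 0.13 with a median of 0.089, and the median of all genes tested was -0.017. All 7 passed the filter on low counts. The plot of CPM by library shows each value.

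**Figure D1:**
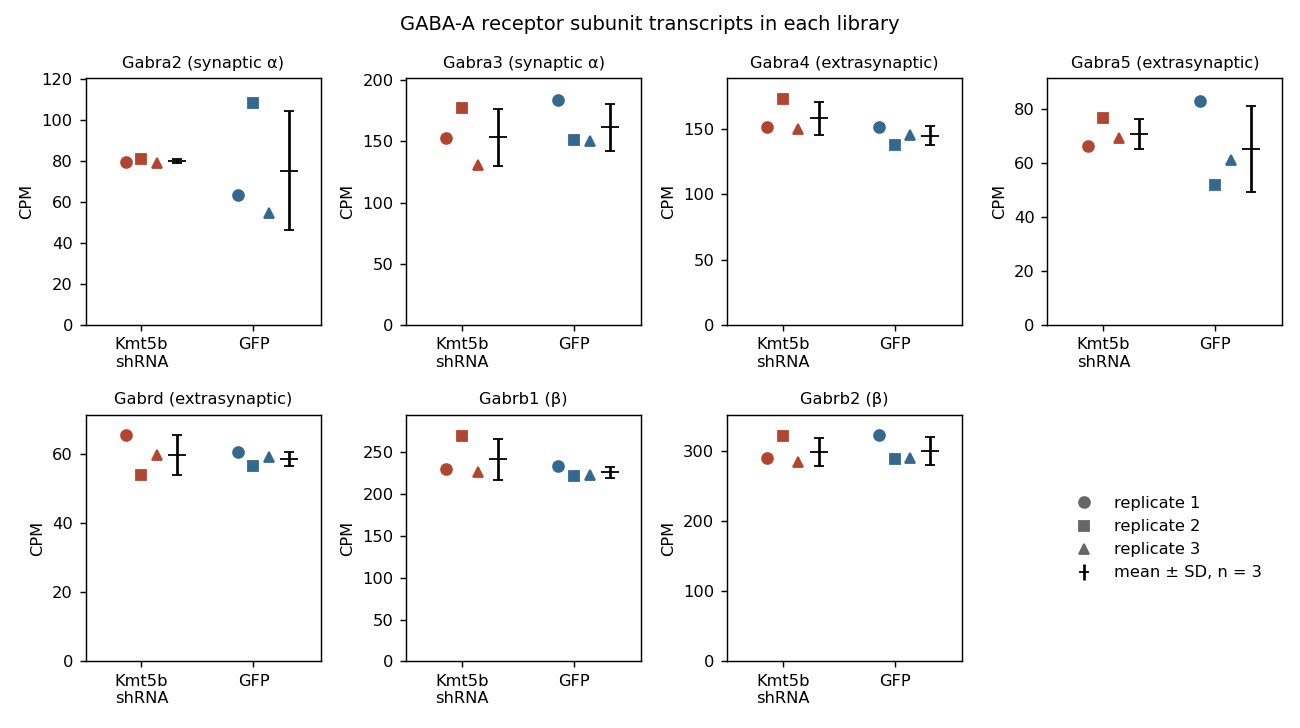
TMM-scaled CPM (vertical axis, from 0) of the 7 GABA-A subunit genes in the 3 Kmt5b shRNA libraries (red, left) and 3 GFP libraries (blue, right), with the mean ± SD in black (n = 3 each). The groups overlap for each gene, and Gabra2 reaches 108 CPM in GFP replicate 2 against 63.1 and 54.3 CPM in the other GFP libraries.

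Among the synaptic α subunits, Gabra2, which encodes the α2 subunit found at synapses on the cell body and axon initial segment, had 79.6, 80.9 and 78.8 CPM in the Kmt5b shRNA libraries. The GFP libraries had 63.1, 108 and 54.3 CPM of Gabra2. The Kmt5b shRNA libraries were nearly equal (coefficient of variation 1.33%) and lay inside the GFP range, which GFP replicate 2 set at its top. Means were 79.8 ± 1.06 CPM and 75.2 ± 28.9 CPM (SD, n = 3 each). On the log2 scale this was 0.089 ± 0.25 (SE) with an edgeR adjusted p of 0.925. The 95% interval ran from -29.8% to 61.3%, the widest of the 7.

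The Gabra2 result rested on GFP replicate 2. Without that library Gabra2 was higher in Kmt5b shRNA cortex, by 0.45 ± 0.10 on the log2 scale (edgeR adjusted p = 0.0155). The mean of GFP replicates 1 and 3 was 58.7 CPM. In that fit 2.34% of 25301 genes were called higher and 5.09% lower, 7.43% in all, and Gabra2 was the 1 subunit called. Without GFP replicate 1 the Gabra2 log2 fold change was -0.019, and without GFP replicate 3 it was -0.10. Leaving out GFP replicate 2 was 1 of 6 such fits, and the design gives no reason to prefer it. Nor do the labels single out any GFP library, although the design text counts only 2 GFP mice.

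GFP replicate 2 held 1.84 times the Gabra2 level of the mean of GFP replicates 1 and 3, and 1.36 times the mean of the Kmt5b shRNA libraries. Of 11187 genes with an average log2 CPM of at least 3, 114, or 1.02%, varied as much within the GFP group as Gabra2 (coefficient of variation 38.4%, where the median gene had 9.03%). In 68 of the 11187 genes GFP replicate 2 exceeded each other library by at least the gap seen for Gabra2, and in 93 it fell below each other library by that much. The excess was not shared by the other subunit genes of the chromosome 5 group. Over the mean of the other 5 libraries, GFP replicate 2 had a log2 ratio of 0.60 for Gabra2, 0.20 for Gabrg1, which encodes the γ1 subunit, -0.17 for Gabra4 and -0.090 for Gabrb1. Within 3 Mb of the Gabra2 start, 15 other genes had an average log2 CPM of at least 3. Their ratios ran from -0.48 to 0.33 with a median of -0.025, and GFP replicate 2 was the highest library for 5 of them. Genes of the window below that level were not compared.

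**Figure D2:**
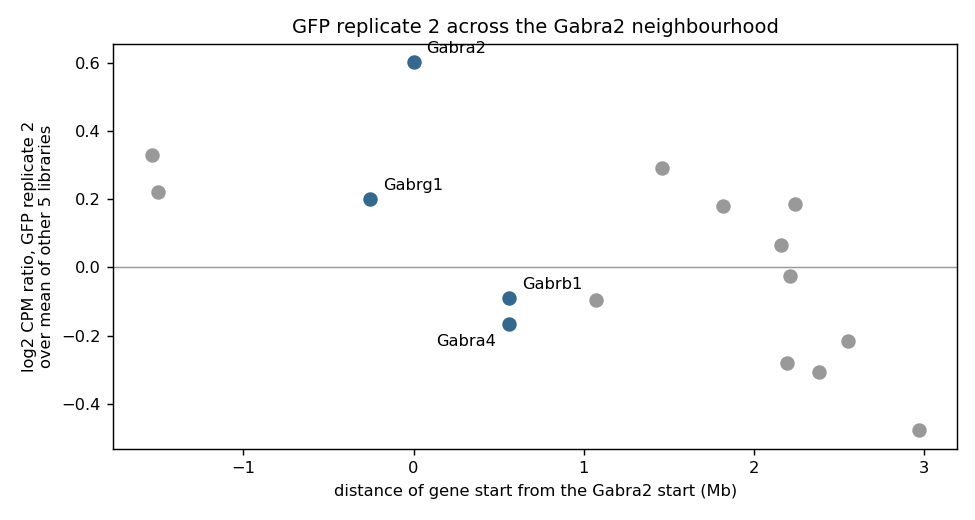
Log2 ratio of CPM in GFP replicate 2 over the mean of the other 5 libraries (vertical axis) for Gabra2 and 15 genes within 3 Mb of its start (horizontal axis, distance in Mb), with GABA-A subunit genes in blue. Only genes with an average log2 CPM of at least 3 are shown. Gabra2 stands at 0.60, above each neighbour shown, the highest of which is at 0.33.

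In mouse, C57BL/6J is known to have less Gabra2 transcript than many other inbred strains, and to carry a defective copy of Nnt, which encodes the mitochondrial nicotinamide nucleotide transhydrogenase. Nnt, chosen after its values were seen, had 23.4, 23.7 and 24.3 CPM in the Kmt5b shRNA libraries and 27.2, 39.8 and 47.2 CPM in the GFP libraries (log2 fold change -0.68 ± 0.16, SE; edgeR adjusted p = 0.0203). GFP replicates 2 and 3 were the highest for Nnt, whereas GFP replicate 2 was the highest and GFP replicate 3 the lowest for Gabra2. The part of strain background in the Gabra2 values was not tested.

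Gabra3, encoding the α3 subunit, had 153, 177 and 131 CPM in the Kmt5b shRNA libraries and 184, 151 and 150.3 CPM in the GFP libraries. The Kmt5b shRNA libraries included the lowest value of the 6, and the highest was in GFP replicate 1. In log2 terms Gabra3 changed by -0.077 ± 0.12 (SE; edgeR adjusted p = 0.845), and the 95% interval of the difference ran from -20.9% to 13.6%. The sign turned, to 0.036 without Kmt5b shRNA replicate 3 and to 0.029 without GFP replicate 1.

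Among the extrasynaptic subunits, Gabra4, encoding the α4 subunit that pairs with δ in forebrain, had 152, 173 and 150.1 CPM in the Kmt5b shRNA libraries and 152, 138 and 145 CPM in the GFP libraries. Kmt5b shRNA replicate 2 was the highest of the 6 and GFP replicate 2 the lowest. The log2 fold change of Gabra4 was 0.13 ± 0.10 (SE; edgeR adjusted p = 0.608), with a 95% interval from -5.6% to 26.2%. This was the smallest p of the 7 subunits, at 0.217 before adjustment.

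Gabra5, encoding the α5 subunit, had 66.2, 76.9 and 69.5 CPM in the Kmt5b shRNA libraries and 83.1, 51.9 and 61.1 CPM in the GFP libraries. The GFP libraries held both the highest and the lowest value, and GFP replicate 2, highest for Gabra2, was lowest for Gabra5. The means of 70.9 ± 5.46 and 65.4 ± 16.0 CPM (SD, n = 3 each) gave a log2 fold change of 0.11 ± 0.15 (SE; edgeR adjusted p = 0.792; 95% interval -13.1% to 34.9%). Its log2 fold change ranged from -0.018 without GFP replicate 2 to 0.33 without GFP replicate 1, where the edgeR adjusted p was 0.0949.

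Gabrd, encoding the δ subunit that marks tonic receptors, had 65.4, 54.1 and 59.8 CPM in the Kmt5b shRNA libraries and 60.5, 56.4 and 59.1 CPM in the GFP libraries. All GFP values lay inside the Kmt5b shRNA range. In log2 terms Gabrd changed by 0.026 ± 0.10 (SE; edgeR adjusted p = 0.942), with a 95% interval from -12.04% to 17.9%.

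Of the β subunits, Gabrb1 had coefficients of variation of 10.1% in Kmt5b shRNA and 2.88% in GFP libraries, and Gabrb2 of 6.64% and 6.53%. Gabrb1, encoding β1, had 229.6, 270.0 and 226 CPM in the Kmt5b shRNA libraries and 234, 222 and 223 CPM in the GFP libraries. Only Kmt5b shRNA replicate 2 stood above the rest. In log2 terms Gabrb1 changed by 0.097 ± 0.10 (SE; edgeR adjusted p = 0.731; 95% interval -7.91% to 24.2%), and 0.011 without Kmt5b shRNA replicate 2.

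Gabrb2, encoding β2, a partner in the most common receptor type of the adult brain, had 291, 322 and 286 CPM in the Kmt5b shRNA libraries and 324, 289 and 290.3 CPM in the GFP libraries. The 2 groups had nearly the same range. Their means were 299.7 ± 19.9 and 301 ± 19.6 CPM (SD, n = 3 each). On the log2 scale this was -0.0061 ± 0.10 (SE; edgeR adjusted p = 0.988) with a 95% interval from -14.1% to 15.4%. That sign turned under RLE scaling and DESeq2, where the value was below 0.01 in size. The plot of fold changes sets these intervals beside the fits that leave out a library.

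**Figure D3:**
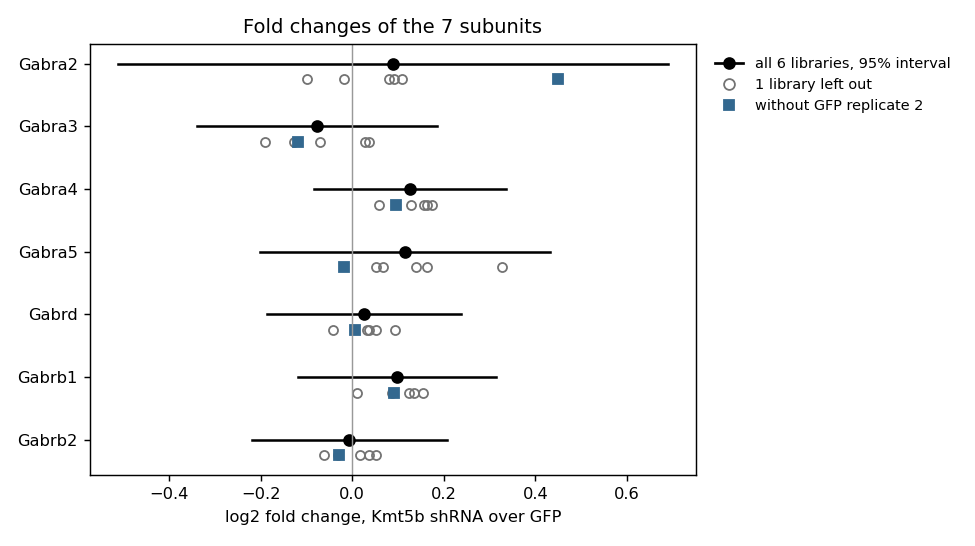
Log2 fold change of Kmt5b shRNA over GFP (horizontal axis) for the 7 subunits, with black points and lines for all 6 libraries and the 95% interval, open circles for fits without 1 library and blue squares for the fit without GFP replicate 2. Every interval with all 6 libraries includes 0, and Gabra2 lies at 0.45 without GFP replicate 2.

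Synaptic and extrasynaptic subunits were set against each other within each library, as the mean log2 CPM of Gabra2 and Gabra3 minus that of Gabra4, Gabra5 and Gabrd. This difference was 0.34, 0.42 and 0.25 in the Kmt5b shRNA libraries and 0.24, 0.79 and 0.16 in the GFP libraries. The Kmt5b shRNA values lay within the GFP range, which GFP replicate 2 again extended. Kmt5b shRNA libraries averaged 0.34 ± 0.08 and GFP libraries 0.40 ± 0.34 (SD, n = 3 each), a difference of -0.062 in log2 units, and no test was made of a score over chosen genes. Leaving out 1 library moved this difference between -0.18 and 0.14. With Gabra5 left out of the extrasynaptic genes it was -0.039.

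Summed CPM gave the same picture by role. The synaptic α genes summed to 232, 258 and 209.6 CPM in the Kmt5b shRNA libraries and 247, 259 and 205 CPM in the GFP libraries, with overlapping ranges. Extrasynaptic genes summed to 284, 304 and 279 CPM in the Kmt5b shRNA libraries and 296, 246 and 266 CPM in the GFP libraries, and the β genes to 521, 592 and 511 CPM against 557, 511 and 513 CPM. The ratio of Gabrb1 to Gabrb2, from the per-length levels given next, was 0.363, 0.385 and 0.364 in the Kmt5b shRNA libraries and 0.332, 0.353 and 0.352 in the GFP libraries. The groups did not overlap for this ratio, which was not tested. In CPM, 22.5% of all tested genes had groups that did not overlap.

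Levels were compared between subunits per kb of merged GENCODE M21 exons. Gabrb2 was the highest, with 44.9 to 50.7 CPM per kb in Kmt5b shRNA and 45.4 to 50.9 in GFP libraries. Gabra3 followed, with 33.3 to 45.1 CPM per kb in Kmt5b shRNA and 38.3 to 46.9 in GFP libraries. Although the ranges of Gabrb2 and Gabra3 overlapped across libraries, Gabrb2 was the higher of the pair in 6 of 6 libraries.

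Gabra4 came next in level per kb, at 24.7 to 28.5 CPM per kb in Kmt5b shRNA and 22.6 to 25.01 in GFP libraries, below Gabra3 without overlap. It was above Gabra5 in 5 of 6 libraries, with overlapping ranges. Gabra5, at 22.3 to 25.9 in Kmt5b shRNA and 17.4 to 27.9 CPM per kb in GFP libraries, and Gabrd, at 18.8 to 22.8 and 19.6 to 21.05 CPM per kb, could not be ordered, since Gabra5 was the higher in 3 of 6 libraries. With the longest protein-coding transcript as the length, Gabrd took rank 4 and Gabra5 rank 5.

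Gabrb1 had 16.3 to 19.5 CPM per kb in Kmt5b shRNA and 16.0 to 16.9 in GFP libraries, and lay below Gabrd in 5 of 6 libraries. Gabra2 was the lowest of the 7 at 10.3 to 10.6 CPM per kb in Kmt5b shRNA and 7.11 to 14.2 in GFP libraries, without overlap with Gabrb1. Gabra2 made up 5.32% to 5.94% of the summed per-kb level of the 7 genes in Kmt5b shRNA and 4.13% to 8.15% in GFP libraries. All 7 together made up 49.7% to 50.9% of the summed per-kb level of the 19 subunits in Kmt5b shRNA and 51.1% to 52.8% in GFP libraries. The groups did not overlap for this share, which was not tested, while 22.5% of all tested genes did not overlap in CPM.

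**Figure D4:**
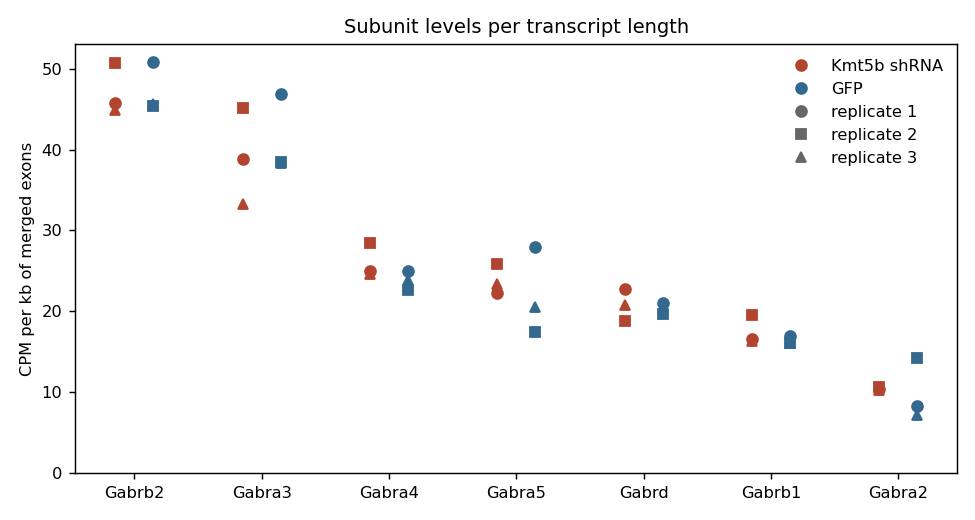
CPM per kb of merged exons (vertical axis, from 0) for the 7 subunits in order of their mean level, with Kmt5b shRNA libraries in red on the left and GFP libraries in blue on the right of each gene. Gabrb2 is highest at 44.9 to 50.9 and Gabra2 lowest at 7.11 to 14.2 over the 6 libraries.

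Across the 6 libraries the subunits did not vary as one group. Log2 CPM of Gabra4 and Gabrb1 had a Pearson r of 0.94, and that of Gabra3 and Gabrb2 an r of 0.93. For Gabra5 the closest other subunit was Gabrb2 (r = 0.77). Gabra2 and Gabrd had no close partner among the 7, the largest r being 0.06 for Gabra2 with Gabrb1 and 0.07 for Gabrd with Gabra5. The lowest r were -0.53 for Gabrd with Gabrb1 and -0.45 for Gabra2 with Gabra5. These values describe 6 libraries of 2 groups that share depth and scaling, and carry no test. Among 10564 genes compared, the gene of largest r was Kansl1 for Gabra2 (0.994), Habp4 for Gabra3 (0.998), Vkorc1l1 for Gabra4 (0.997), Cers5 for Gabra5 (0.995), Pcx for Gabrd (0.975), Thnsl1 for Gabrb1 (0.989) and Nkiras1 for Gabrb2 (0.998). The largest r of so many genes over 6 libraries can be this high by selection alone, so no link is read from it. 

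Of the other 12 GABA-A subunits, 7 were tested and 0 were called higher or lower by edgeR, with a median log2 fold change of 0.071. Gabrq, encoding the θ subunit, had the smallest p, at 2.58, 2.47 and 2.35 CPM in the Kmt5b shRNA libraries and 1.52, 1.76 and 1.62 CPM in the GFP libraries (log2 fold change 0.60 ± 0.23, SE; edgeR adjusted p = 0.167; unadjusted p = 0.0218, the only such p under 0.05 in this list). Every Kmt5b shRNA library was above every GFP library for Gabrq, at a low level, and 22.5% of all tested genes had groups that did not overlap. Gabrg1 came next, with 23.5, 28.7 and 17.8 CPM in the Kmt5b shRNA libraries and 29.5, 29.1 and 27.1 CPM in the GFP libraries (log2 fold change -0.29 ± 0.14, SE; edgeR adjusted p = 0.3203, and 0.0392 without Kmt5b shRNA replicate 2). The 5 subunits left out by the filter on low counts, Gabra6, Gabre, Gabrp, Gabrr1 and Gabrr3, had at most 15 counts in a Kmt5b shRNA library and 16 in a GFP library.

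Genes that assemble, move and anchor the receptor gave 2 of 25 tested members higher and 0 lower, against 2.77% higher and 5.69% lower over all genes tested, with a median log2 fold change of 0.022. Mdga1, which encodes a membrane protein that binds neuroligin-2 and limits inhibitory synapse formation, had 19.3, 11.9 and 17.6 CPM in the Kmt5b shRNA libraries and 7.85, 7.71 and 6.29 CPM in the GFP libraries. It rose by a log2 fold change of 1.17 ± 0.17 (SE; edgeR adjusted p = 0.00025) and passed with any library left out. In the genes sharing no sequence, where 0.515% were called higher and 0.257% lower, the Mdga1 adjusted p was 0.0186. Gabarapl2, of the family of the receptor-associated protein GABARAP and known for its part in autophagy, had 86.0, 112 and 83.1 CPM against 49.7, 36.8 and 36.9 CPM in the GFP libraries (log2 fold change 1.19 ± 0.14, SE; edgeR adjusted p = 4.88e-05). Gabarapl2 shares sequence with other genes, so its value is uncertain and it was left out where only genes sharing no sequence were tested.

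Among chloride transporters and their kinases, which set the chloride gradient that the receptor uses, 0 of 6 were called by edgeR and the median log2 fold change was 0.097. The kinase Wnk1 had 188, 197 and 275 CPM in the Kmt5b shRNA libraries and 138, 153 and 181 CPM in the GFP libraries (log2 fold change 0.48 ± 0.15, SE; edgeR adjusted p = 0.0678). Its unadjusted p of 0.00621 was the only one under 0.05 in this list, and DESeq2 called it (adjusted p = 0.0125). In edgeR, Wnk1 was called with the replicate number as a block (adjusted p = 0.00787), with no filter (0.00031) and on leaving out GFP replicate 3 (0.0327) or Kmt5b shRNA replicate 1 (0.0402), and its largest adjusted p over the alternatives was 0.240. The neuronal chloride exporter Slc12a5 had 594, 491 and 542 CPM in Kmt5b shRNA and 500.1, 426 and 504 CPM in GFP libraries (edgeR adjusted p = 0.447).

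The metabotropic GABA-B receptor and its auxiliary Kctd subunits gave 0 of 6 called by edgeR, a median log2 fold change of 0.030 and 1 unadjusted p under 0.05. That was Kctd12, at 19.1, 19.4 and 20.3 CPM in the Kmt5b shRNA libraries and 15.6, 14.7 and 17.6 CPM in the GFP libraries (log2 fold change 0.29 ± 0.11, SE; edgeR adjusted p = 0.155). Gabbr2, the subunit that couples to G proteins, had 504, 462 and 468 CPM in Kmt5b shRNA and 427, 416 and 419 CPM in GFP libraries (edgeR adjusted p = 0.360).

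In GABA synthesis and transport 2 of 8 genes were lower and 0 higher, against 5.69% lower and 2.77% higher over all genes tested, with a median log2 fold change of -0.13. Both were also called lower with protein-coding genes only, where 184 of 15778 genes were lower. Slc6a11, the GABA transporter GAT-3 of astrocytes, fell to 73.0, 69.5 and 54.7 CPM in the Kmt5b shRNA libraries, against 90.5, 92.3 and 88.9 CPM in the GFP libraries (log2 fold change -0.46 ± 0.11, SE; edgeR adjusted p = 0.0132). Its adjusted p was 0.0802 without Kmt5b shRNA replicate 3. Abat, the GABA transaminase that breaks GABA down, fell to 198, 210.5 and 166 CPM in the Kmt5b shRNA libraries, against 259.7, 285 and 242 CPM in the GFP libraries (log2 fold change -0.45 ± 0.11, SE; edgeR adjusted p = 0.0158). The Abat call was lost on leaving out GFP replicate 2 (edgeR adjusted p = 0.0817). Leaving out Kmt5b shRNA replicate 1 gave 0.0640, and leaving out replicate 3 of that group gave 0.0979.

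Neither Slc6a11 nor Abat passed in the genes sharing no sequence, although their log2 fold changes were about as large (-0.47, adjusted p = 0.0588, and -0.46, adjusted p = 0.0572). Astrocyte markers were also lower in sum. Their 8 genes, none of them at 0, summed to 3716 to 4183 CPM in Kmt5b shRNA and 4288 to 4442 CPM in GFP libraries. Their median log2 fold change was -0.17, and 3 of 8 were called lower, against 5.69% of all genes tested. That share, also used for the interneuron markers below, counts genes that are not protein-coding. With protein-coding genes only, 184 of 15778 genes were called lower. The water channel Aqp4, 1 of the 3, lay beyond this median (log2 fold change -0.64). It had 123.3, 124 and 103 CPM in Kmt5b shRNA against 157, 211 and 179 CPM in GFP libraries. Oligodendrocyte markers, all 8 detected, summed to 1536 to 3242 CPM in Kmt5b shRNA and 2796 to 4275 CPM in GFP libraries, with a median log2 fold change of -0.42 and 0 of 8 called. Those of oligodendrocyte precursors, all 6 detected, summed to 225 to 258 CPM in Kmt5b shRNA and 209 to 231 CPM in GFP libraries. Of the 6, 2 were higher, against 2.77% of all genes tested. The part of glial content in the Slc6a11 and Abat values was not tested. Interneuron markers, all 10 detected, summed to 1056 to 1147 CPM in Kmt5b shRNA and 1055 to 1135 CPM in GFP libraries. Of the 10, 2 were lower, against 5.69% of all genes tested. Excitatory neuron markers, all 8 detected, summed to 2906 to 3177 CPM in Kmt5b shRNA and 2615 to 3077 CPM in GFP libraries, with 0 of 8 called. The plot of GABA signalling genes shows the 7 subunits beside these lists.

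**Figure D5:**
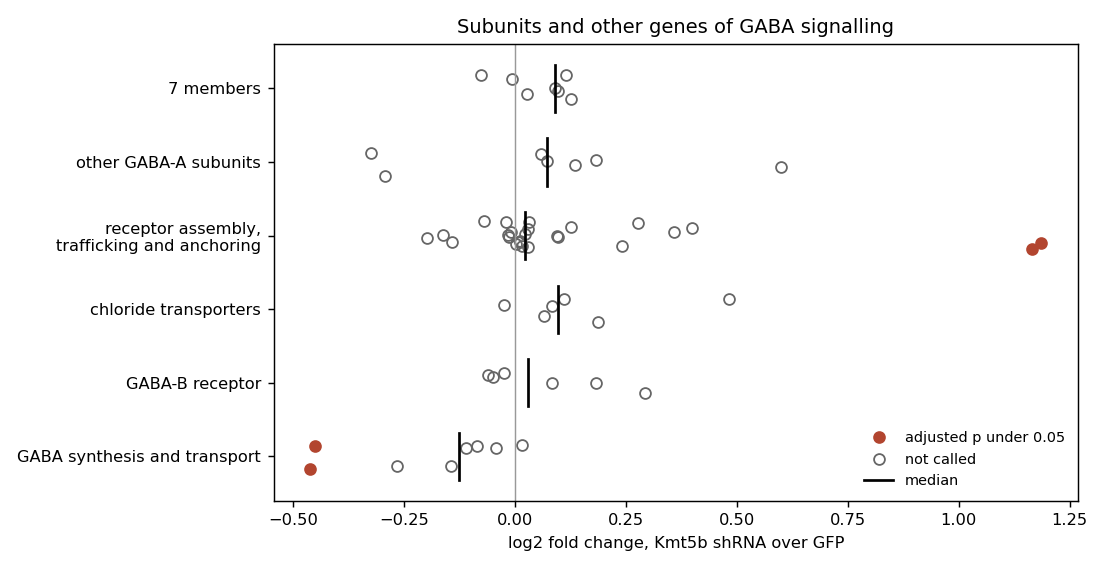
Log2 fold change of Kmt5b shRNA over GFP (horizontal axis) for the 7 subunits and the tested genes of 5 lists, with filled red points for edgeR adjusted p under 0.05, open points for the rest and a black bar at each median. The called genes are 2 higher in assembly, trafficking and anchoring and 2 lower in GABA synthesis and transport, and 0 of the 7 subunits are called.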

How the data were processed

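Bulk RNA of 6 prefrontal cortex libraries was analysed from raw read counts per gene symbol deposited by the authors. Per the labels' protocols, ribosomal RNA was depleted, libraries were stranded, and Cutadapt trimming preceded TopHat2 alignment to RefSeq mRNAs. The submitters' processing notes instead name STAR, with featureCounts, DESeq2 and mm10. Versions and the strand setting are not given in the sources used here. Groups and replicate numbers came from sample titles. The 7 subunits and all lists were chosen with earlier results of these data known.

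The main test was the robust quasi-likelihood test of edgeR 4.0.16 (R 4.3.3; legacy=TRUE) after filterByExpr and TMM, and p-values were adjusted by Benjamini-Hochberg over all 24419 genes. The SE is the absolute log2 fold change over the square root of F, and intervals use 95% confidence. Alternatives were DESeq2 1.42.0, RLE and upper-quartile scaling, other filters, protein-coding genes only, a replicate block, each library left out, and, chosen after the data were seen, genes sharing no sequence (no BLAST+ 2.17.0 match at 90% identity over 200 bases; 12433 genes). Named genes are the subunits, Kmt5b, the called genes of each pathway list or, where none was called, the 2 of smallest p, and the closest gene by r. Slc17a7 and Aqp4, defining markers of their lists, Nnt and the window around Gabra2 were chosen after values were seen. The counting of reads limits precision little at 1595 counts or more per subunit and library, so the spread between libraries sets the errors.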

Additional observations from a re-analysis of the deposited data

How the results depend on the processing

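No subunit was called under DESeq2, both other scalings, both other filters, protein-coding genes only, genes sharing no sequence or the replicate block, where their lowest adjusted p was 0.462. Leaving out 1 library gave 0 to 1 subunits called higher, the 1 being Gabra2 without GFP replicate 2, and 0 lower. Log2 fold changes then ranged from -0.10 to 0.45 for Gabra2, -0.19 to 0.036 for Gabra3, 0.06 to 0.17 for Gabra4, -0.018 to 0.33 for Gabra5, -0.042 to 0.094 for Gabrd, 0.011 to 0.15 for Gabrb1 and -0.061 to 0.052 for Gabrb2. Of 98 subunit values under the 14 alternatives, 11 turned sign. Gabrb2 was 0.0047 under RLE scaling and 0.0046 under DESeq2. Kmt5b ranged from -0.31 to -0.14 without 1 library.

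Genes called over the whole table were 676 higher and 1390 lower. These were of 24419 genes tested. Genes sharing no sequence gave 64 and 32 of 12433. With protein-coding genes only, 471 were higher and 184 lower of 15778, so that lower calls were no longer the more frequent. Leaving out genes that are not protein-coding thus took lower calls from 1390 to 184 and higher calls from 676 to 471. An average log2 CPM of at least 1 gave 582 higher and 677 lower of 15071. Leaving out 1 library gave 467 to 822 higher and 1229 to 1510 lower. In the pathway lists the 2 higher calls became 5 with no filter, 5 under DESeq2 and 1 in genes sharing no sequence, and 2 to 3 without 1 library. The 2 lower calls became 0 in genes sharing no sequence and 0 to 3 without 1 library. Why these counts moved was not tested.

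With the replicate number as a block, 704 genes were higher and 1507 lower, and subunit values ran from -0.08 to 0.15 (adjusted p 0.630 to 0.986). The numbers were not taken as pairs, since deviations of same-numbered libraries had correlations of -0.03, -0.01 and 0.22, and Kmt5b shRNA replicates 1 and 2 did not correlate best with their own number. Kmt5b shRNA replicate 3 did. The block turned no subunit call but called Wnk1. Depth was lowest in GFP replicate 2.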
